A study of Mus musculus with 8 samples.

Results

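The 34 genes described here mark the endothelium of the liver. They are 13 genes listed here as sinusoid-restricted and 21 that endothelial cells of most vessels express, out of 48440 genes in the count table. The restriction is relative to other vessels, since resident liver macrophages also express Stab1, Lyve1, Mrc1, Fcgr2b and Maf. The members were chosen by gene symbol, matched to the Ensembl identifiers of the table through GENCODE M21 (GRCm38), and all 34 were found and passed the filter on low counts. Earlier results of these data were known when they were chosen. RNA was sequenced from whole livers of 8 neonatal CD1 mice killed at 3 to 8 days of age. Of these, 4 were Myo5b knockout pups with a germline knockout of the gene for myosin Vb, a motor of apical recycling endosomes, and 4 were control littermates, either heterozygous or wildtype for it. The knockout is germline, so endothelial cells carry it as hepatocytes do, and the labels do not say which control was heterozygous. The age, sex and litter of each pup are not given. Each liver has its own number in the labels, and nothing more is said of how the pups were drawn.

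Sinusoidal endothelial cells line the capillaries of the liver lobule. They have open pores and no continuous basement membrane, and they clear hyaluronan, modified proteins and immune complexes from blood through scavenger and lectin receptors. Vessels outside the sinusoid have a continuous wall, and their cells share junction proteins, receptors for vascular endothelial growth factor (VEGF) and angiopoietin, and transcription factors of the ETS and SOX families with the sinusoid. Sinusoidal cells lose part of their own programme and gain features of continuous vessels, a change known as capillarization, in several liver diseases.

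Library totals ran from 15134291 to 18398039 counts in the knockout livers and from 14228268 to 17007771 in the controls. Myo5b itself had 43.1 to 59.5 CPM in the knockout livers and 94.0 to 172 CPM in controls, a log2 fold change of -1.43 (SE 0.18, adjusted p = 3.14e-04 in edgeR's quasi-likelihood test). The labels do not say how the gene was disrupted, so the reads left in knockout livers do not measure intact transcript. CPM are counts scaled to a common library size (trimmed mean of M values) and compare livers within a gene. Levels between genes are given in TPM, which also divide by exonic length. Fold changes are log2 values of knockout over control livers, and a gene was called when its p-value, adjusted by Benjamini-Hochberg over all 18274 genes tested, was under 0.05.

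Endothelial genes were mostly higher in the knockout livers. Of the 34 genes, 19 were called higher and 0 lower, and 31 had a log2 fold change above 0. Over all genes tested 20.7% were called, 9.27% higher and 11.4% lower, so that 44.8% of the calls were higher, against 57.6% with library size as the only scaling. Every knockout liver lay above every control liver for 18 of the 34 genes and below for 0, against 10.8% and 12.8% of all genes tested. The median log2 fold change was 0.38 over the 34 genes, against 0.01 over all genes tested, and only Nos3 and Clec4g among the members differed by more than 2-fold. CPM are relative to the whole library. In whole-liver RNA, more endothelial cells, more RNA per endothelial cell and less RNA from other cells cannot be told apart.

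**Figure D1:**
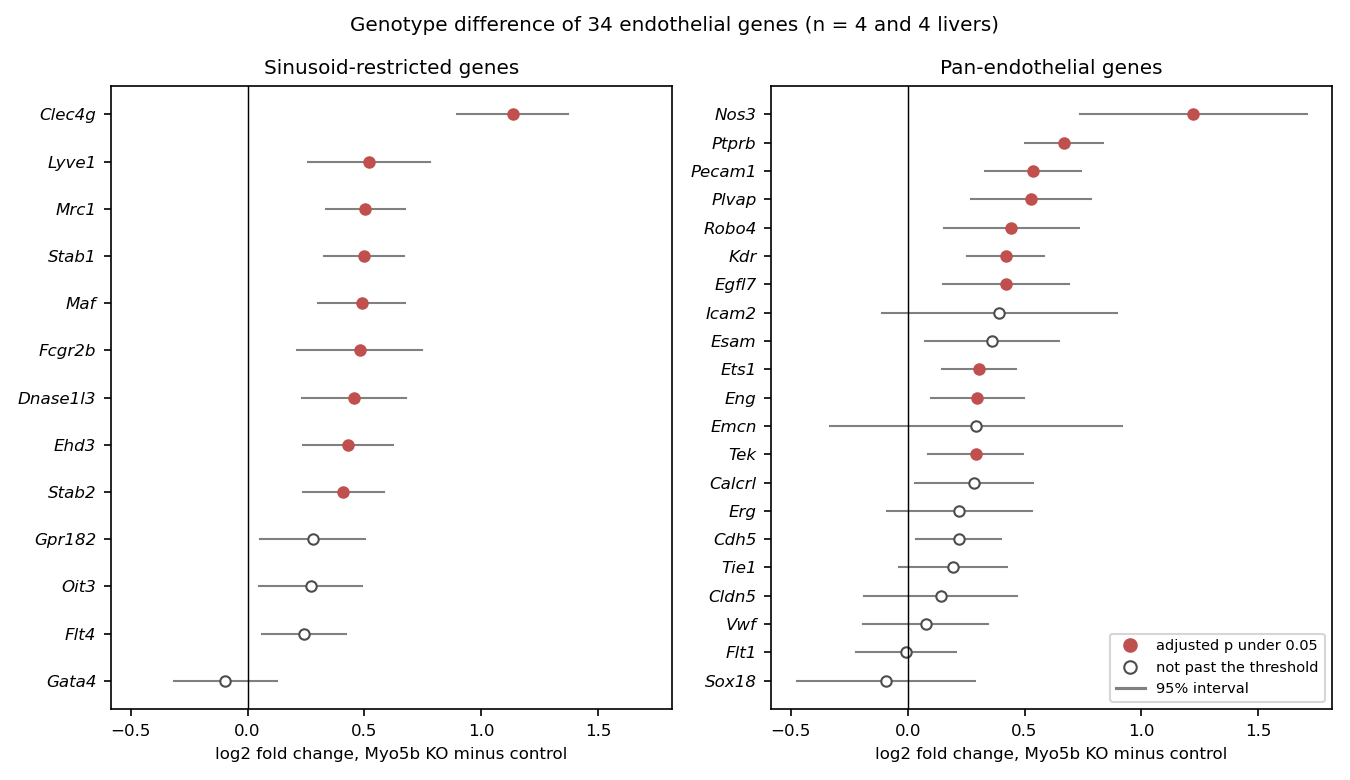
Log2 fold change of knockout over control livers (x axis) for the 13 sinusoid-restricted genes (left) and the 21 pan-endothelial genes (right), with 95% intervals as lines. Filled points are genes past the threshold; Clec4g at 1.13 and Nos3 at 1.22 lie farthest from 0, and Gata4, Flt1 and Sox18 lie just below 0.

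The receptors by which sinusoidal cells take up material from blood were all called higher. Resident liver macrophages also express Stab1, Lyve1, Mrc1 and Fcgr2b among them, and 13 of 15 macrophage markers were called higher in these livers. Clec4g, a C-type lectin of the sinusoid also known as LSECtin, had 74.5, 69.3, 77.2 and 62.1 CPM in the knockout livers (animals 275, 276, 277 and 278), against 26.6, 38.0, 31.9 and 32.5 CPM in the control livers (animals 279, 280, 281 and 282). The lowest knockout value was well above the highest control value. The log2 fold change was 1.13 (SE 0.11, adjusted p = 3.05e-06), or 2.20-fold, the largest of the sinusoid-restricted genes. The gene lies on the minus strand of chromosome 8 (3707064 to 3720651, GRCm38). Its RefSeq promoter is shown beside those of the VEGF receptor genes Kdr and Flt1, which are described further on as a receptor that rose and one that did not. Each runs from 250 bases before to 50 bases after the annotated start, 5′ to 3′ along the gene, and capitals mark GGAAGT or its reverse complement ACTTCC, a core that ETS factors bind.
Clec4g, chr8:3720602-3720901, minus strand, GRCm38: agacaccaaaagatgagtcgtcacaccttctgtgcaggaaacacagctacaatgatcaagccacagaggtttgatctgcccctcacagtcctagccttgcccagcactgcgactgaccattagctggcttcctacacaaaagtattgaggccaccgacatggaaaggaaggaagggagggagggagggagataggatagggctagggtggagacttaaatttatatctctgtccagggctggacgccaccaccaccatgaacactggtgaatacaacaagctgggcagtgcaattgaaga
Kdr, chr5:75978406-75978705, minus strand, GRCm38: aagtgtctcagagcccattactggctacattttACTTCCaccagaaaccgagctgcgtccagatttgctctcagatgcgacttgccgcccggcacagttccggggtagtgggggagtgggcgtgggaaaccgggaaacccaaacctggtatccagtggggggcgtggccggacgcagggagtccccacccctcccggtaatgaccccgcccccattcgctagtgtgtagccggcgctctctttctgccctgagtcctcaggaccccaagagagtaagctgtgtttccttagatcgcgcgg
Flt1, chr5:147725962-147726261, minus strand, GRCm38: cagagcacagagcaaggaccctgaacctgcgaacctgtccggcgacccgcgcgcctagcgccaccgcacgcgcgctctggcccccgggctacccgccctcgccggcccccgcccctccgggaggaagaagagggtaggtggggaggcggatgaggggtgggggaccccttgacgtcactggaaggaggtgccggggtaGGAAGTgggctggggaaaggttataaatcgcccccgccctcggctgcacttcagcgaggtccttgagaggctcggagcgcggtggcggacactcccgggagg
The Clec4g window holds neither GGAAGT nor ACTTCC, and the Kdr and Flt1 windows hold 1 match each. Shorter runs such as GGAA occur in all of these windows and were not marked.

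Stab2, a scavenger receptor for hyaluronan, had 429, 391, 461 and 431 CPM in the knockout livers, against 309, 318, 351 and 312 CPM in controls. The groups did not overlap, and the log2 fold change was 0.41 (SE 0.08, adjusted p = 0.00178). Its relative Stab1, which takes up modified proteins, had 203, 183, 221 and 217 CPM in knockout livers and 141, 142, 154 and 147 CPM in controls. That is a log2 fold change of 0.50 (SE 0.08, adjusted p = 3.07e-04), again with no overlap. The mannose receptor gene Mrc1 had 233, 261, 236 and 218 CPM in knockout livers against 163, 174, 172 and 160 CPM in controls, at 0.50 (SE 0.08, adjusted p = 2.50e-04).

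Lyve1, a hyaluronan receptor of sinusoidal and lymphatic endothelium, had 79.6, 60.5, 84.6 and 57.0 CPM in knockout livers and 48.4, 55.5, 46.8 and 45.8 CPM in controls. Knockouts 276 and 278 came close to control 280, and the log2 fold change was 0.52 (SE 0.12, adjusted p = 0.00646). Fcgr2b, the inhibitory Fc receptor with which sinusoidal cells clear immune complexes, had 65.7, 50.7, 62.8 and 42.8 CPM in knockout livers and 39.5, 41.2, 43.3 and 35.1 CPM in controls. Knockout 278 fell just below control 281, and the log2 fold change of 0.48 (SE 0.13, adjusted p = 0.0121) lost its call without knockout 275, at 0.39.

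Of 4 other sinusoidal products, 2 were called higher, against 9.27% of all genes tested. Ehd3, a membrane-remodelling ATPase of the endocytic pathway, had 193, 177, 223 and 221 CPM in knockout livers and 134, 154, 161 and 156 CPM in controls, with a log2 fold change of 0.43 (SE 0.09, adjusted p = 0.00286). Dnase1l3, a secreted nuclease that degrades DNA in circulating particles, had 94.6, 85.3, 102 and 97.5 CPM in knockout livers and 61.0, 83.2, 71.7 and 60.4 CPM in controls. Its groups were separated by a narrow margin between knockout 276 and control 280, at 0.46 (SE 0.10, adjusted p = 0.00482).

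Gpr182, an atypical chemokine receptor, had a log2 fold change of 0.28 (95% interval 0.05 to 0.50, adjusted p = 0.0741), and the secreted zona pellucida domain protein gene Oit3 one of 0.27 (0.05 to 0.49, adjusted p = 0.0790). Neither passed the threshold, and the knockout and control livers overlapped for both. Oit3 passed without knockout 276, at 0.34, and Gpr182 without control 280, at 0.36, and both with library size as the only scaling, at 0.34 and 0.35. Zbtb39, which overlaps 1.87% of the exonic length of Gpr182 on the opposite strand, was itself called higher, with 40.2 ± 2.32 CPM in knockout livers and 31.4 ± 2.69 CPM in controls (SD, n = 4). The strand setting of the counting is not given, so reads from shared stretches cannot be assigned.

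Of the transcription factor genes Maf and Gata4, Maf was called. It had 152, 155, 156 and 132 CPM in knockout livers against 105, 111, 93.3 and 115 CPM in controls, a log2 fold change of 0.49 (SE 0.09, adjusted p = 7.60e-04) with no overlap. Gata4, which encodes a factor required for the sinusoidal programme in mouse embryos, had 45.1, 40.7, 49.98 and 42.8 CPM in knockout livers and 51.0, 53.4, 42.6 and 43.8 CPM in controls. The groups overlapped, and the log2 fold change was -0.09 (95% interval -0.32 to 0.13, adjusted p = 0.586). The difference between Maf and Gata4 was not tested.

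Of the 3 VEGF receptor genes, 1 was called, where 20.7% of all genes tested were called. Kdr, the main signalling receptor for VEGF-A, had 239, 227, 260 and 251 CPM in knockout livers against 178, 196, 179 and 176 CPM in controls, a log2 fold change of 0.42 (SE 0.08, adjusted p = 9.82e-04), and the groups did not overlap. Flt1, which encodes a receptor that binds VEGF-A tightly and signals weakly, had 57.9, 44.9, 57.4 and 50.5 CPM in knockout livers and 55.5, 50.3, 56.9 and 49.3 CPM in controls. The groups overlapped, at -0.01 (95% interval -0.22 to 0.21, adjusted p = 0.968). Its sign changed with the scaling, at 0.06 with library size alone.

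Flt4, the receptor for VEGF-C, which is also found on lymphatic vessels, had 141, 117, 146 and 127 CPM in knockout livers and 112, 109, 113 and 115 CPM in controls. Every knockout lay above every control, yet the log2 fold change of 0.24 (95% interval 0.06 to 0.42, adjusted p = 0.0541) just missed the threshold. It passed without knockout 276, at 0.29, or without knockout 278, at 0.26, and in DESeq2, with median-ratio or no scaling beyond library size, and with a filter of 1 CPM in 4 libraries. Within each library, where scaling cancels, Kdr over Flt1 was 4.12, 5.06, 4.53 and 4.98 in knockout livers and 3.21, 3.91, 3.16 and 3.58 in controls. All 4 knockout ratios were above all 4 control ratios. This ratio, like the others given within libraries, was chosen after the values were seen and carries no test.

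The angiopoietin receptor axis showed its largest difference in its phosphatase. Ptprb, which encodes the endothelial phosphatase VE-PTP that restrains TIE2, had 331, 291, 324 and 289 CPM in knockout livers against 199, 190, 201 and 185 CPM in controls. The log2 fold change was 0.67 (SE 0.08, adjusted p = 1.56e-05), 1.59-fold, and the groups were far apart. Tek, which encodes TIE2 itself, had 52.6, 49.6, 60.1 and 53.5 CPM in knockout livers and 47.0, 41.5, 47.1 and 40.8 CPM in controls, at 0.29 (SE 0.10, adjusted p = 0.0408). That call was lost with no low-count filter, at 0.29, and without knockout 275 (0.30), 277 (0.23) or 278 (0.30) or control 279 (0.32), 280 (0.26) or 282 (0.25).

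Its orphan partner gene Tie1 had 45.2, 34.3, 43.5 and 43.1 CPM in knockout livers and 37.3, 39.5, 34.9 and 33.6 CPM in controls, at 0.19 (95% interval -0.04 to 0.42, adjusted p = 0.238). Ptprb over Tie1 was 7.31, 8.49, 7.45 and 6.71 in knockout livers and 5.35, 4.81, 5.77 and 5.52 in controls, with no overlap. Tek over Tie1 was 1.16 to 1.45 in knockout livers and 1.051 to 1.35 in controls, with overlap.

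**Figure D2:**
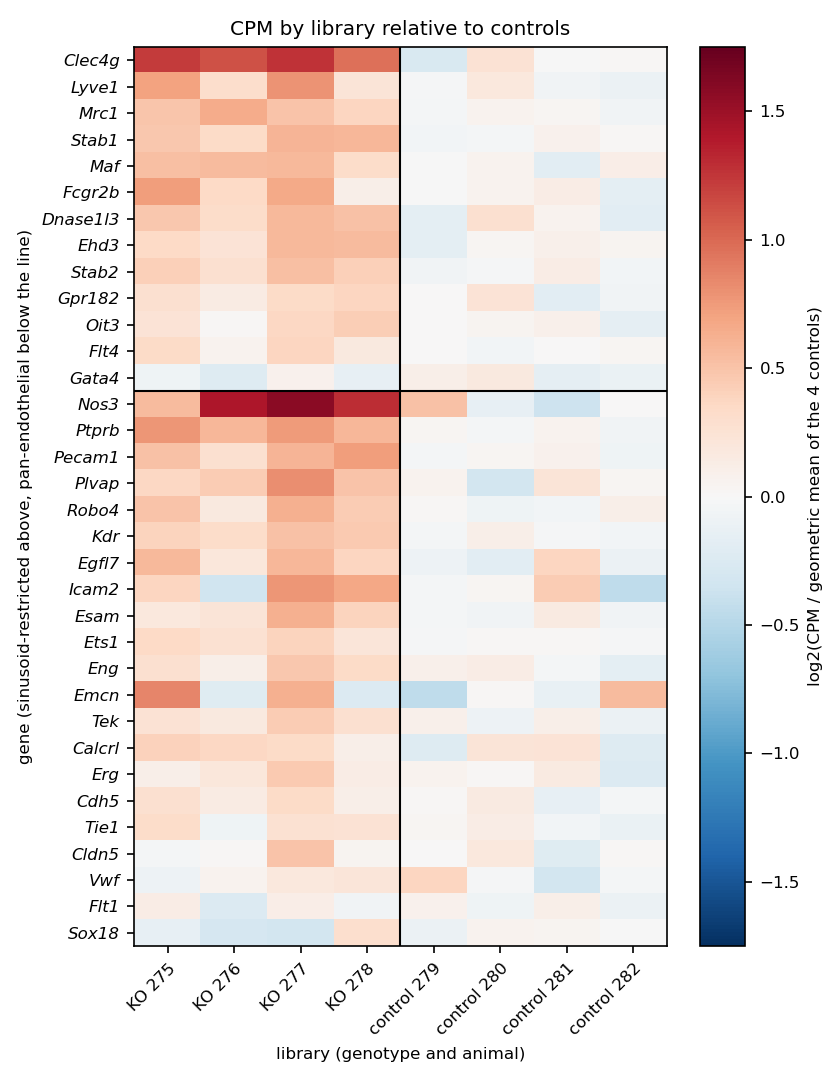
CPM of each gene (rows) in each library (columns, knockout livers on the left) as the log2 ratio to the geometric mean of the 4 control livers. Knockout columns are red for most rows; knockout 277 held the highest knockout value for 22 of the 34 genes and knockout 276 the lowest for 17.

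Among the other receptors, Eng and Robo4 were called higher and Calcrl was not. Endoglin (Eng), a co-receptor for BMP9 and BMP10, had 112, 99.8, 128 and 116 CPM in knockout livers and 98.4, 101, 90.3 and 82.0 CPM in controls, with a log2 fold change of 0.30 (SE 0.09, adjusted p = 0.0334). Knockout 276 lay below control 280. The call was lost without knockout 275 (0.31), 277 (0.23) or 278 (0.29) or control 279 (0.32), 281 (0.28) or 282 (0.24). Robo4, a receptor that stabilises the vessel wall, had 19.95, 15.9, 21.7 and 19.2 CPM in knockout livers and 14.4, 13.3, 13.6 and 15.2 CPM in controls, at 0.44 (SE 0.14, adjusted p = 0.0276). It lost its call without knockout 275 (0.43) or 277 (0.37) or control 279 (0.45), 280 (0.42) or 281 (0.42). Calcrl, the receptor for adrenomedullin, had 67.5, 65.6, 64.1 and 54.7 CPM in knockout livers and 43.5, 59.6, 60.2 and 43.5 CPM in controls, with overlap. It had a log2 fold change of 0.28 (95% interval 0.03 to 0.54, adjusted p = 0.107), and passed with library size as the only scaling, at 0.36.

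Of the 6 junction and surface genes, 1 was called, a share near the 20.7% called over all genes tested. Pecam1, the adhesion molecule CD31, had 74.7, 63.9, 79.2 and 86.7 CPM in knockout livers against 51.2, 53.8, 55.2 and 49.6 CPM in controls, at 0.54 (SE 0.10, adjusted p = 8.21e-04), with no overlap. Cdh5, which encodes VE-cadherin of the adherens junction, had 168, 153, 173 and 149 CPM in knockout livers and 140, 154, 125 and 135 CPM in controls. The groups overlapped at 0.22 (95% interval 0.04 to 0.40, adjusted p = 0.0840), and the gene passed without knockout 278 (0.25) or control 280 (0.27) and with library size as the only scaling (0.29).

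Esam, a tight-junction adhesion molecule, had 17.98 to 24.3 CPM in knockout livers and 15.1 to 17.6 CPM in controls. Its groups did not overlap, but the log2 fold change of 0.36 (95% interval 0.07 to 0.65, adjusted p = 0.0708) missed the threshold. It passed with library size as the only scaling, at 0.43, and at 0.41 when Y-linked genes entered the fit. Icam2, an adhesion ligand for leukocytes, had 0.39 (-0.11 to 0.90), the sialomucin gene Emcn 0.29 (-0.33 to 0.92), and Cldn5, the claudin of endothelial tight junctions, 0.14 (-0.19 to 0.47). All 3 had overlapping groups. Of the 8 members with a mean under 20 CPM, 6 were not called.

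Of the 3 transcription factor genes shared by most endothelium, Ets1 was called higher, at 154, 145, 158 and 139 CPM in knockout livers and 119, 123, 123 and 119 CPM in controls (log2 fold change 0.30, SE 0.08, adjusted p = 0.00806). Ets1 is also known from lymphocytes. Erg, a factor that maintains endothelial identity, had 14.1 to 17.96 CPM in knockout livers and 11.1 to 14.7 CPM in controls, at 0.22 (95% interval -0.09 to 0.53, adjusted p = 0.326). Sox18 had 7.43 to 11.5 CPM in knockout livers and 8.70 to 9.72 CPM in controls, at -0.09 (-0.48 to 0.29, adjusted p = 0.771).

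RefSeq promoters of 300 bases (GRCm38) were at hand for 18 of the 34 genes, and were searched on both strands for short cores of the factor families among the members. The ETS core GGAAGT was in 8 of the 18 (44.4%), and in 26.5% of 27025 genes with a promoter. It was in 6 of 11 called genes and 2 of 7 that were not called. The GATA core AGATAA was in 2 of the 18 (11.1%), against 12.7% of all, the SOX core AACAAT in 4 (22.2% against 12.2%) and the MAF core TGCTGA in 6 (33.3% against 21.7%). None of these cores contains another. The matches describe letters in these windows and were not tested.

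Vessel-wall and secreted genes gave 3 calls of 4, all higher, against 9.27% called higher over all genes tested. Nos3, which encodes endothelial nitric oxide synthase, had 10.8, 19.7, 21.9 and 18.02 CPM in knockout livers and 10.5, 6.64, 5.70 and 7.36 CPM in controls. Knockout 275 was barely above control 279, while the other knockouts were far above all controls. The log2 fold change of 1.22 (SE 0.23, adjusted p = 0.00130), 2.33-fold, was the largest of the 34. Exons of the antisense gene Gm15587 cover 25.2% of the exonic length of Nos3 and those of Atg9b 7.12%, both on the other strand, so part of its count is uncertain. Those genes themselves had 0.695 ± 0.222 and 1.31 ± 1.4996 CPM in knockout livers and 0.350 ± 0.220 and 0.726 ± 0.492 CPM in controls (SD, n = 4).

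Plvap, which forms the diaphragms of endothelial openings and is scarce in mature sinusoids, had 60.3, 63.5, 82.1 and 66.1 CPM in knockout livers and 48.6, 37.5, 54.5 and 48.0 CPM in controls, at 0.53 (SE 0.12, adjusted p = 0.00478). The groups did not overlap. Egfl7, a secreted matrix protein of vessels, had 63.2, 49.0, 64.1 and 55.7 CPM in knockout livers and 40.2, 37.5, 55.8 and 39.9 CPM in controls, at 0.42 (SE 0.13, adjusted p = 0.0274). Control 281 lay among the knockouts. Agpat2, which overlaps 1.79% of its exonic length on the other strand, was called lower. The Egfl7 call was lost without knockout 275 (0.38) or 277 (0.36) or control 279 (0.38), 280 (0.35) or 282 (0.38). Vwf, the von Willebrand factor of large vessels and platelets, had 56.0, 61.8, 67.5 and 68.9 CPM in knockout livers and 77.0, 58.6, 47.4 and 58.1 CPM in controls. The log2 fold change was 0.08 (95% interval -0.19 to 0.34, adjusted p = 0.725), and control 279 held the highest value of all.

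Set side by side, 9 of the 13 sinusoid-restricted genes and 10 of the 21 pan-endothelial genes were called higher. Over all genes tested 9.27% were called higher. Median log2 fold changes of the lists were 0.46 and 0.30, in that order. All 8 members with a mean under 20 CPM were pan-endothelial, and 6 of these were not called. The share called in each list therefore cannot be read apart from count level. Summed over the list, sinusoid-restricted genes had 1810, 1679, 1927 and 1758 CPM in knockout livers and 1274, 1370, 1361 and 1300 CPM in controls. Pan-endothelial genes had 1584, 1449, 1695 and 1539 CPM in knockout livers and 1222, 1229, 1219 and 1144 CPM in controls. Both sums were higher in every knockout liver. The mean log2 CPM of the sinusoid-restricted genes minus that of the pan-endothelial genes was 1.36, 1.36, 1.27 and 1.26 in knockout livers and 1.15, 1.31, 1.19 and 1.22 in controls. Control 280 lay above knockouts 277 and 278, so the groups overlapped, and the difference between the lists was not tested.

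Sinusoid-restricted and pan-endothelial genes were interleaved in level. Per exonic length Stab2 was the most abundant, with a mean of 76.3 TPM in knockout livers and 53.7 TPM in controls, followed by Cdh5 with 59.6 and 47.7 TPM and Mrc1 with 58.1 and 38.2 TPM. Plvap had 53.6 and 34.7 TPM and Ehd3 48.5 and 33.6 TPM. At the other end were Robo4 with 5.64 TPM in knockout livers and 3.87 TPM in controls, Nos3 with 6.72 and 2.64 TPM, and Emcn with 1.496 and 1.15 TPM. Among VEGF receptor genes Kdr (42.2 and 29.4 TPM) was above Flt4 (25.1 and 19.9 TPM) and Flt1 (6.07 and 5.73 TPM). Of the 33 neighbouring pairs in this order, 4 did not overlap among knockout livers (such as Stab2 above Cdh5) and 5 among controls (such as Cdh5 above Mrc1), and the others did. TPM carry no trimmed-mean scaling, so their group ratios are not the fold changes tested.

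**Figure D3:**
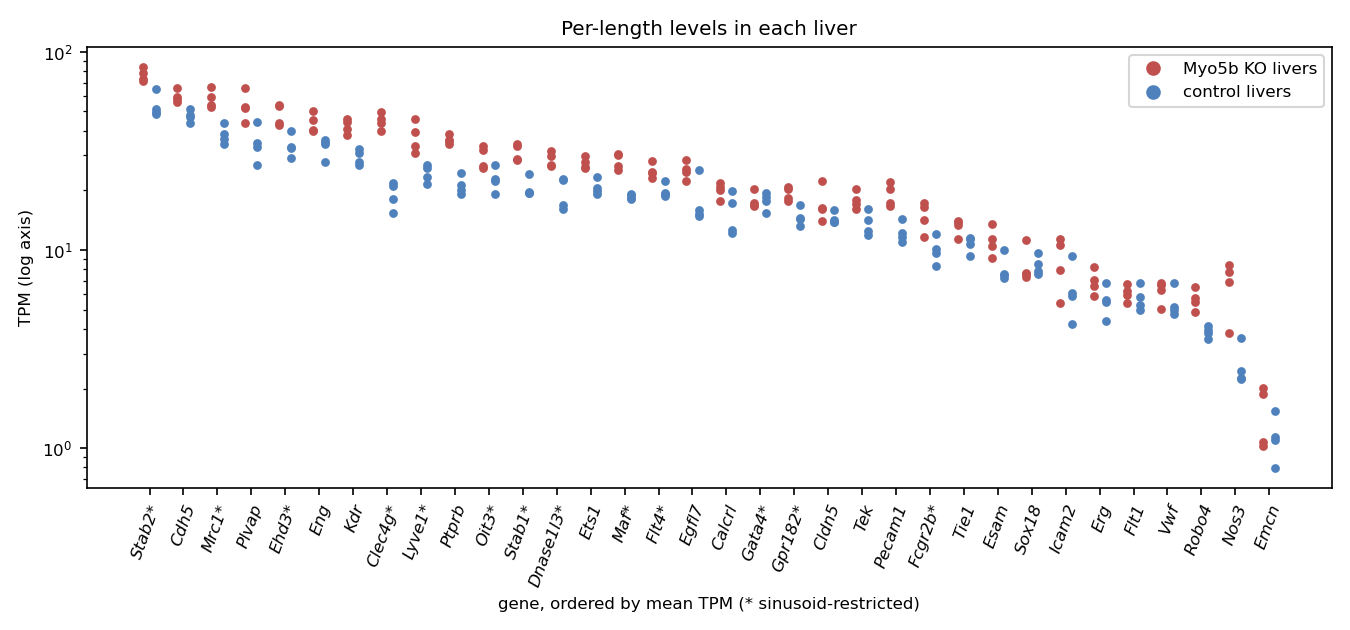
Level of each gene in TPM (log axis) in each of the 4 knockout livers (red, left of each pair) and the 4 control livers (blue, right), ordered by mean level. Stab2 (76.3 TPM in knockout and 53.7 TPM in control livers) is highest, and Emcn (1.496 and 1.15 TPM) lowest.

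Genes of other cell types moved in the same livers. The counts below stand beside 9.27% called higher and 11.4% called lower over all genes tested. Macrophage markers were higher, 13 of 15 called, with a summed level of 1713 to 1977 CPM in knockout livers and 943 to 1078 CPM in controls. Resident liver macrophages also express Stab1, Lyve1, Mrc1, Fcgr2b and Maf. Without these genes the median of the sinusoid-restricted list was 0.34, close to the pan-endothelial median of 0.30. Clec4g, Stab2, Dnase1l3 and Ehd3 were called among those left. Whether macrophages contribute to the counts of the genes left was not tested. Erythroid markers were lower, 14 of 14 called (Ahsp is not in the table), at 498 to 1119 CPM in knockout livers and 2182 to 3141 CPM in controls. Megakaryocyte markers (megakaryocytes also make Vwf) had 4 of 11 lower and 0 higher, at 85.1 to 137 CPM in knockout livers and 133 to 194 CPM in controls. Hepatocyte markers had 1 of 10 higher and 2 lower, and their summed level was lower in every knockout liver, at 89868 to 100824 CPM in knockout livers and 111226 to 138951 CPM in controls. The albumin gene Alb (-1.08, SE 0.11, adjusted p = 5.74e-06) and the transthyretin gene Ttr (-0.97, SE 0.10) fell. The fetuin gene Ahsg rose (0.37, SE 0.09), and the median of the list was -0.01. Alb had a mean of 32558 CPM in knockout livers and 68617 CPM in controls, so the lower sum reflects Alb rather than the list as a whole. Cholangiocyte markers had 0 of 6 called, at 44.4 to 58.5 CPM in knockout livers and 41.9 to 48.6 CPM in controls, and neutrophil markers 1 of 8 lower, at 588 to 944 CPM in knockout livers and 768 to 981 CPM in controls. Stellate cell markers had 4 of 13 higher and 2 lower, at 1661 to 1821 CPM in knockout livers and 1890 to 2332 CPM in controls. Most of that sum was Reln (means of 551 and 638 CPM), Col3a1 (541 and 781 CPM) and Col1a1 (166 and 228 CPM). The median of the list was 0.05, and its mean log2 CPM was 5.96 in knockout livers and 5.84 in controls. The list as a whole was thus not lower. No gene of these lists was at 0 in all libraries.

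The part of these cell types in the endothelial differences cannot be told apart from genotype in 8 livers. With the mean of erythroid markers as a covariate 0 of the 34 genes were called, and with that of macrophage markers also 0. These means correlated with genotype at -0.94 and 0.97 across the 8 libraries. Over all genes, 23 were called higher and 17 lower with the erythroid covariate, and 0 with the macrophage covariate. The median SE of the 34 genes was 0.29 and 0.43 in these fits, against 0.11 without a covariate. With the erythroid covariate the sinusoid-restricted median was 0.24 and the pan-endothelial median 0.17. In that fit 10 of the 34 genes were below 0, against 3 without a covariate. Of the called genes Lyve1 (-0.46) and Fcgr2b (-0.57) changed sign, and of those not called Emcn (-1.28), Calcrl (-0.42), Cldn5 (-0.28), Cdh5 (-0.17), Erg (-0.14) and Flt4 (-0.04) turned below 0 and Sox18 (0.62) above. With the macrophage covariate the medians were 0.65 and 0.67. Summed over the list, the 34 genes were 1.58 to 2.02 times the macrophage markers in knockout livers and 2.39 to 2.66 times in controls.

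**Figure D4:**
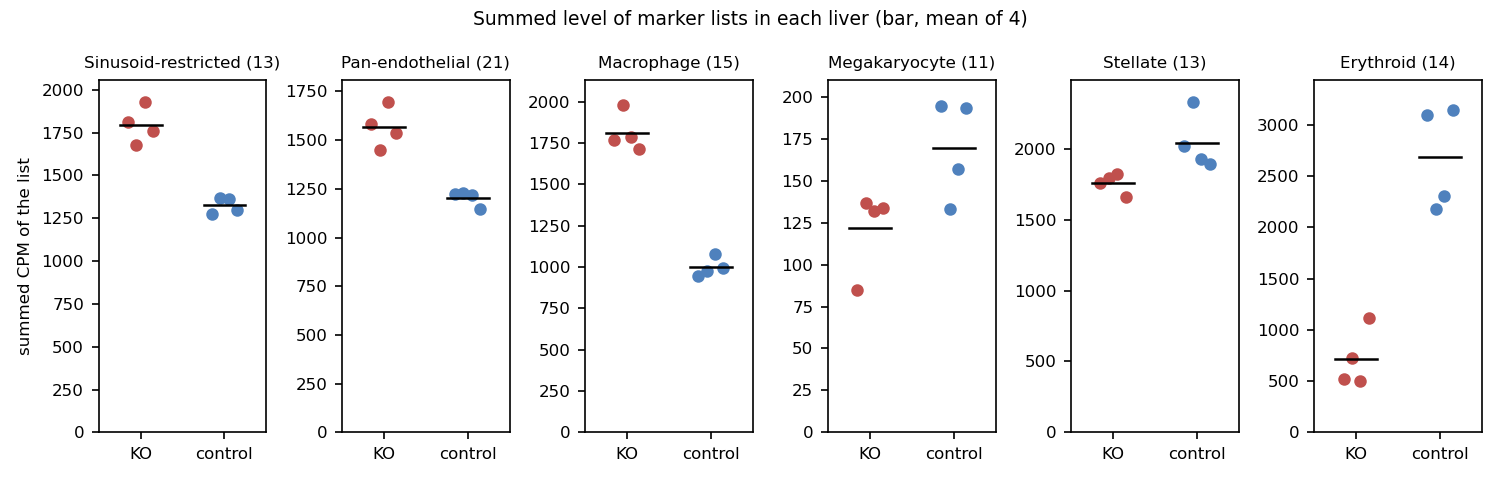
Summed CPM of each marker list (number of genes in brackets) in each liver, knockout left and control right, each panel with its own axis from 0 and bars at the group means. Both endothelial sums and the macrophage sum are higher in every knockout liver, and the erythroid sum is lower in every knockout liver.

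Endothelial genes beyond the 34 are given from lists of known genes. Over all genes tested, 9.27% were called higher and 11.4% lower. Of 11 other sinusoidal genes tested, 7 were called higher and 0 lower, with a median log2 fold change of 0.61. Aqp1 went the other way, with means of 150 CPM in knockout livers and 181 CPM in controls. Every knockout liver lay below every control liver, but at -0.27 (SE 0.09, adjusted p = 0.0517) it just missed the threshold. Bmp2, the signal by which sinusoidal cells set hepcidin, had 85.7, 71.0, 74.0 and 65.3 CPM in knockout livers against 33.7, 28.8, 26.5 and 25.1 CPM in controls, at 1.37 (SE 0.11, adjusted p = 7.25e-07). The surface protein gene Adam23 (0.95, SE 0.09) and the semaphorin receptor gene Plxnc1 (0.81, SE 0.08) were also called. Of 20 other pan-endothelial genes, 7 were called higher and 0 lower, with a median of 0.26. The smallest p-values were those of Exoc3l2 (0.74, SE 0.14), Palmd (0.69, SE 0.13) and Cd93 (0.49, SE 0.10), while the called gene with the largest fold change was Ecscr (0.81, SE 0.24, adjusted p = 0.0223). As among the 34, the median was higher in the sinusoidal list, and that difference was not tested. These lists too were chosen with earlier results of these data known, so they give no independent second showing.

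Ligands of endothelial receptors gave 2 calls of 12 tested (16.7%), both higher, with a median of 0.16. That share was close to the 20.7% called over all genes tested. Vegfa, the ligand of Kdr and Flt1, had 204, 202, 191 and 220 CPM in knockout livers against 171, 146, 179 and 151 CPM in controls, at 0.34 (SE 0.09, adjusted p = 0.00981). Gdf2, which encodes BMP9, a ligand for which Eng is co-receptor, had 42.9, 44.5, 55.0 and 40.6 CPM in knockout livers and 34.2, 43.4, 31.2 and 33.7 CPM in controls, at 0.36 (SE 0.12, adjusted p = 0.0468). Control 280 lay among the knockouts.

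Of 15 co-receptors and downstream genes, 10 were called higher and 1 lower (73.3% called, against 20.7% of all genes tested). The one that fell was S1pr1, the sphingosine-1-phosphate receptor of endothelium and lymphocytes, with 27.1, 27.5, 28.2 and 30.2 CPM in knockout livers against 53.0, 53.1, 44.8 and 49.9 CPM in controls (log2 fold change -0.83, SE 0.10, adjusted p = 1.69e-05). Its ratio to Cdh5 was 0.16, 0.18, 0.16 and 0.20 in knockout livers and 0.38, 0.35, 0.36 and 0.37 in controls, with a wide gap. Id1, a target of BMP signalling, had 28.4, 34.1, 42.4 and 46.6 CPM in knockout livers and 14.9, 17.97, 15.4 and 22.5 CPM in controls, at 1.10 (SE 0.17, adjusted p = 2.32e-04). Ramp3, which modifies the specificity of Calcrl, was counted 38, 49, 18 and 59 times in knockout livers against 0, 2, 2 and 4 times in controls. Its fitted log2 fold change of 4.15 (SE 0.67, adjusted p = 2.91e-04) rests on 8 control counts.

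Of 10 genes of Notch and ephrin signalling, which pattern arteries and veins, 0 were called in edgeR, DESeq2 or limma-voom. At an unadjusted p under 0.05 there were 0 in edgeR, 1 in DESeq2 and 1 in limma-voom. Over all genes tested 20.7% were called in edgeR. Jag2, Hey1 and Hey2 had means of 0.98, 0.80 and 0.70 CPM in knockout livers, with SE of 0.57, 0.59 and 0.54. For Notch1 every knockout liver lay above every control liver, at 0.13 (SE 0.08). The 0 calls do not show that these genes were unchanged. Of 16 tested markers of particular vessels, 6 were called higher and 1 lower (43.8% called). Icam1, an adhesion molecule induced on activated endothelium, had 58.7, 54.8, 46.6 and 62.7 CPM in knockout livers against 26.6, 29.5, 39.0 and 28.5 CPM in controls, at 0.85 (SE 0.13, adjusted p = 1.46e-04). Thbd, the anticoagulant receptor thrombomodulin, had 18.4, 14.6, 13.5 and 8.86 CPM in knockout livers and 6.95, 8.72, 6.41 and 7.36 CPM in controls, at 0.91 (SE 0.21, adjusted p = 0.00423). Cxcl12, a chemokine of arterial and stromal cells, fell, with 251, 229, 277 and 247 CPM in knockout livers against 305, 378, 316 and 334 CPM in controls (-0.41, SE 0.09, adjusted p = 0.00346). Cd34, which capillarized sinusoids are known to gain, had 6.16 ± 0.384 CPM in knockout livers and 5.79 ± 0.596 CPM in controls (SD, n = 4). Its log2 fold change was 0.09 (SE 0.20, adjusted p = 0.797). Cd34 was low in level and was added after values were seen, and capillarization was not tested. Prox1, which lymphatic endothelium shares with hepatocytes, had a log2 fold change of -0.01 (SE 0.09).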

How the data were processed

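RNA from the livers of 4 knockout and 4 control pups was sequenced. The authors deposited raw counts per Ensembl gene. Reads had been aligned by Rsubread (version 2.20.0, R 4.4.1), per the labels' protocols, and featureCounts is named in the submitters' processing notes. Their build name, GRMm38, was taken to mean GRCm38. The sources used here do not state the annotation, the strand setting or the rule for multi-mapping reads. Of 48440 genes, 48058 matched a symbol of GENCODE M21.

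Counts were tested with edgeR 4.0.16 (R 4.3.3) by the robust quasi-likelihood F-test after filterByExpr (minimum count 10, minimum total 15), which left 18274 genes, with TMM scaling, genotype as the only term and Benjamini-Hochberg adjustment. The SE is the log2 fold change divided by the square root of F, and 95% intervals use the t quantile of the fit's degrees of freedom. TPM used the union of exons. Mean log2 CPM of a list used a prior count of 2. Single genes were named by rule: all 34 members, Myo5b, and in each related list up to 3 called genes with the smallest p. Cd34, Prox1, Ecscr, Aqp1, Alb, Ttr, Ahsg, Reln, Col3a1, Col1a1 and the ratios within libraries were added after values were seen. The members and lists were chosen with earlier results of these data known, so lists have counts and medians and no test. The fit was also run on simulated counts in which a small share of genes changed, in random directions. That run does not bear on the scaling of these data, where far more genes differed. Each library counted as a replicate because the labels give each liver its own number. Libraries of a group differed by more than sampling noise (chi-square over its degrees of freedom, 11.9 to 21.8). That spread does not by itself show that they came from separate animals. P-values set each genotype difference against the spread between livers of a group. The labels do not say how pups were drawn, nor the litter and age of each. Differences in these between the groups could not be modelled.

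Alternatives were median-ratio scaling, library size alone, no low-count filter, a filter of 1 CPM in 4 libraries, DESeq2 1.42.0, limma-voom (limma 3.58.1), covariates for erythroid, macrophage and Y-linked genes, each library left out, and shorter sinusoidal lists. Figures were drawn with matplotlib 3.10.9.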

Additional observations from a re-analysis of the deposited data

Results flagged for a closer look

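In 76 groups of 4 livers (each of the 34 genes and 4 summed lists, in knockout and in control livers), the gap between the most extreme liver and its nearest neighbour was a large part of the group's range in 5, where chance alone flags about 1 in 20. Cldn5 was 19.8 CPM in knockout 277, against 13.6 to 14.4 CPM in the other knockouts. Kdr was 196 CPM in control 280, against 176 to 179 CPM in the other controls. Control 281 held the highest Egfl7, at 55.8 CPM against 37.5 to 40.2 CPM in the other controls, and the highest Esam, at 17.6 CPM against 15.1 to 15.4 CPM. The summed pan-endothelial level of control 282 was 1144 CPM, below the 1219 to 1229 CPM of the other controls. Of the genes named here, Kdr and Egfl7 were called higher in knockout livers, and Kdr kept its call without control 280.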

How the results depend on the processing

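No paired analysis was possible because the knockout and control livers share no replicate number. The number of members called higher (19) was 18 to 25 under other scalings, filters and tools and with the Y-linked covariate, and 14 to 21 with single libraries left out, with 0 called lower throughout. Of the 19, 14 kept their call under all of these (Stab1, Stab2, Lyve1, Clec4g, Mrc1, Dnase1l3, Ehd3, Maf, Pecam1, Kdr, Plvap, Nos3, Ptprb and Ets1). Library size alone moved the share of higher calls over all genes from 44.8% to 57.6% and the median of all genes from 0.01 to 0.08, and gave 25 members higher. Medians ran from 0.40 to 0.48 for sinusoid-restricted and from 0.25 to 0.35 for pan-endothelial genes with single libraries left out. With the erythroid covariate 0 members were called higher, the medians were 0.24 and 0.17, and 10 members were below 0 (3 without it): of the called genes Lyve1 (-0.46) and Fcgr2b (-0.57) turned, and of the others Emcn, Calcrl, Cldn5, Cdh5, Erg and Flt4 turned below 0 and Sox18 above. With the macrophage covariate 0 were called, the medians were 0.65 and 0.67, and Myo5b itself turned to 0.068. Variance inflation of genotype was 9.21 with the erythroid and 17.3 with the macrophage covariate. Without the members shared with macrophages the sinusoid-restricted median was 0.34, against 0.30 for the pan-endothelial list. The cause of these shifts was not tested. Of 8 members under 20 CPM, 2 were called, and their SE ran from 0.14 to 0.30.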
